A study of Mus musculus with 2 samples.

Results

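The surrogate light chain genes of the mouse are Vpreb1, Vpreb2, Igll1 and Vpreb3, which make up 4 of the 36980 genes that could be named in the deposited expression table. They were chosen by name, and every transcript that GENCODE M21 (GRCm38) annotates for them was looked up. Of 9 annotated transcripts 5 were listed in the table, namely 1 each for Vpreb1, Vpreb2 and Igll1 and 2 for Vpreb3. The other 4, 3 of Vpreb1 and 1 of Igll1, are non-coding or intron-retaining forms and were not analysed here. The table held 93615 transcripts in all.

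RNA came from a culture of Setdb1 Δ/Δ pro-B cells, where Δ stands for deletion of the gene for the histone H3 lysine 9 methyltransferase SETDB1, and from a culture of Setdb1 C/C pro-B cells, whose column in the table is headed Wt. Cells of both cultures were sorted from mouse bone marrow, carried the bcl2-tg transgene and had been grown with interleukin 7 at 5 ng/µl for 4 days before total RNA was depleted of ribosomal RNA. There was 1 library per genotype, so the differences below rest on single cultures, without p-values or SDs. The labels used here do not give the animals' strain, age or sex, the driver of the deletion or the number of animals pooled.

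A pro-B cell that has joined a heavy chain gene needs a partner for the new µ heavy chain before it owns a light chain. VpreB and λ5, the product of Igll1, pair with each other to form that stand-in, the surrogate light chain. With µ chain and the signalling chains CD79A and CD79B it forms the pre-B cell receptor, whose signal drives a burst of division and then the silencing of the surrogate light chain genes. Mice carry Vpreb1 and Vpreb2 as close paralogues. The product of Vpreb3 binds newly made immunoglobulin chains inside the cell and is not part of the receptor on the surface.

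Vpreb1 (ENSMUST00000075017) lies on the minus strand of chromosome 16 at 16868403 to 16869255, and has 2 exons and 766 bases. Igll1 (ENSMUST00000100136, 3 exons, 870 bases) lies 4.42 kb away on the same strand, at 16860671 to 16863985. Vpreb2 (ENSMUST00000075371, 2 exons, 759 bases) lies 1.11 Mb from Vpreb1 on the plus strand, at 17980428 to 17981273. Vpreb3 is on chromosome 10, with transcripts ENSMUST00000000926 (75948300 to 75949657, 625 bases) and ENSMUST00000121151 (75943057 to 75949637, 729 bases), which differ in exon 1 and share 495 bases of exon 2. No other annotated gene overlaps the listed transcripts of Vpreb1, Vpreb2 or Igll1. A processed pseudogene, Gm16221, lies between the first and second exon of the longer Vpreb3 transcript.

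The sequences of Vpreb1 and Vpreb2 are shown because the comparison of these paralogues turns on how far reads can tell them apart. Their listed transcripts aligned over 759 bases with 20 substitutions (97.4% identity). Of these, 9 fell within the 429 bases of the coding part. The 120 bases of the coding part with the most substitutions hold 6 of them, in capitals, in exon 2 of each gene (GRCm38, chr16:17980919-17981038, plus strand, for Vpreb2 and chr16:16868638-16868757, minus strand, for Vpreb1).
Vpreb2: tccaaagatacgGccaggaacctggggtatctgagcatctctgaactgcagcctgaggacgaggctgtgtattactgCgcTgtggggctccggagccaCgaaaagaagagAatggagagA
Vpreb1: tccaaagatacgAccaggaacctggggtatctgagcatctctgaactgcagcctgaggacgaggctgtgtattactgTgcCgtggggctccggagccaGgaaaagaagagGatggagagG

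The similarity went on upstream of the transcripts. Over 106 bases before the annotated starts, taken from the RefSeq promoter table (GRCm38.p6, chr16:17980315-17980420, plus strand, for Vpreb2 and chr16:16869256-16869361, minus strand, for Vpreb1), 2 bases differed, again in capitals.
Vpreb2: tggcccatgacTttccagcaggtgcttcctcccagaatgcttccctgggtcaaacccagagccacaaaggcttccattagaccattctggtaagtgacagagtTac
Vpreb1: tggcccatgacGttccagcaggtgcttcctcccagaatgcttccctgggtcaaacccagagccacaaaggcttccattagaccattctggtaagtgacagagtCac

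The promoters of Igll1 and Vpreb3 are shown for comparison, as the 150 bases before the RefSeq start (GRCm38.p6, chr16:16863986-16864135, minus strand, and chr10:75948150-75948299, plus strand). Capitals mark the motifs described next.
Igll1: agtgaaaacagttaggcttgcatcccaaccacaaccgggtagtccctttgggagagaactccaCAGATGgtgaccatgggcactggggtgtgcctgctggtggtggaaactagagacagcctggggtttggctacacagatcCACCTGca
Vpreb3: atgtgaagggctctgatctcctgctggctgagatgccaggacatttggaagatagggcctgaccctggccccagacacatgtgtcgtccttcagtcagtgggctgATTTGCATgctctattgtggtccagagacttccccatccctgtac

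Motifs were searched on both strands of the 300 bases around each RefSeq start. The octamer ATTTGCAT, a motif of immunoglobulin promoters, was found in the window of Vpreb3, 45 bases before its start, and in 1.75% of all 27025 promoters. It did not occur in the windows of the other 3 genes. The E-box CAGNTG occurred in all 4 windows and in 51.1% of all promoters. Igll1 had 3 matches, of which the stretch above holds 2. Vpreb1 and Vpreb2 each had a match within the aligned bases above, in the letters caggtg. The core CCCNNGGG, which EBF proteins recognise, occurred once, in the window of Igll1 and outside the stretch printed above, and in 13.4% of all promoters. The Ikaros core TGGGAA occurred once, in the window of Vpreb2 past the annotated start of its transcript, where it overlaps a second E-box match by 2 bases, and in 25.5% of all promoters. The Vpreb2 window is set on a RefSeq start within the transcript used here. It therefore covers 113 bases before the GENCODE start, against 250 for the other 3 genes, and reaches further into the transcript. No substitution between the paralogues falls within its Ikaros core and second E-box. Vpreb1 thus carries the same letters, past the end of its searched window, and these matches do not set Vpreb2 apart from Vpreb1. These matches are letters in a window, and no binding was measured.

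Reads were 101 bases long, so windows of that length were compared. Of the 659 windows of Vpreb2, 96 (14.6%) were identical to a window of Vpreb1, and 286 (43.4%) lay within 2 mismatches of one. For the 666 windows of Vpreb1 the shares against Vpreb2 were 14.4% and 42.9%. No window of Igll1 or Vpreb3 was identical to a window in a transcript of any other annotated gene. How the authors placed reads that fit both paralogues is not given in the sources used here, so the separate values of Vpreb1 and Vpreb2 are uncertain, whereas their sum does not depend on that choice if each such read was counted once, on either gene.

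**Figure D1:**
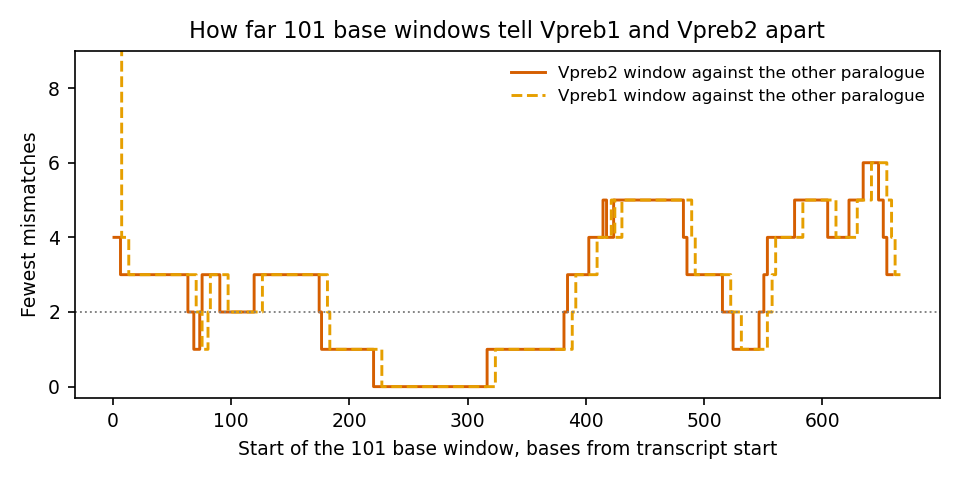
Fewest mismatches (y axis) between each 101 base window of a Vpreb2 (solid) or Vpreb1 (dashed) transcript and any window of the other paralogue, against the window's start in bases from the transcript start (x axis); the dotted line marks 2 mismatches. A central stretch of 96 windows is identical, the median is 3 mismatches, and 7 windows at the start of Vpreb1, which have no counterpart, run off the top of the axis.

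The libraries held 193.3 M reads (Δ/Δ) and 170.6 M reads (C/C), as recovered from the RPKM values (reads per kilobase of transcript and per 1 M reads). Setdb1 itself measured 12.6 RPKM in the Δ/Δ library and 17.0 RPKM in the C/C library over whole transcripts, which does not show how complete the deletion was. The libraries differed in sex markers, with Xist at 23.7 RPKM in Δ/Δ and 0.094 RPKM in C/C, and Eif2s3y at 0 RPKM in Δ/Δ and 22.3 RPKM in C/C. Genotype and sex therefore cannot be told apart for any gene. Of the B lineage markers other than members, 0 of 6 were higher and 3 lower by the size rule given below, and their summed level was 1447 RPKM in Δ/Δ and 2956 RPKM in C/C. Myeloid markers were higher for 9 of 11 measured, of 15 listed, with sums of 255 RPKM in Δ/Δ and 27.8 RPKM in C/C, where Mpo and Elane were listed at 0. Dendritic cell markers were higher for 5 of 5 measured, of 9 listed (sums of 109 and 45.5 RPKM in Δ/Δ and C/C, with Clec9a at 0 in C/C). Most of these sums came from Bst2, at 95.7 RPKM in Δ/Δ and 43.8 RPKM in C/C. Siglech, Klk1, Ccr9 and Clec10a were below 1 RPKM in C/C and counted as measured only through Δ/Δ. Erythroid and megakaryocyte markers were higher for 6 of 7, of 12 listed (sums of 78.1 and 9.35 RPKM in Δ/Δ and C/C, with Car1 at 0 in both). Some higher myeloid and erythroid markers, such as S100a8 and Ppbp, also reached 1 RPKM only in Δ/Δ. These counts of higher markers thus follow in part from the filter. Over all listed markers the median log2 ratio was 1.82 (myeloid), 1.33 (dendritic) and 0.94 (erythroid and megakaryocyte). Of all measured genes 6.28% were higher. T lineage markers summed to 96.3 RPKM in Δ/Δ and 99.8 RPKM in C/C (2 higher and 1 lower of 3 measured, of 10 listed, with Cd3e at 0 in C/C). Most of these sums came from Thy1 (55.7 RPKM in Δ/Δ and 23.7 RPKM in C/C) and Lat (36.3 and 75.7 RPKM). Every other T lineage marker was at most 2.62 RPKM in either library, the level of Cd4 in Δ/Δ. The lists of NK cells (Ncr1 and Gzma at 0 in both libraries), mast cells and basophils, and stroma summed to at most 2.27 RPKM in either library. In the mast cell list 5 of 6 markers, among them Fcer1a and Gata2, were at 0 in C/C, and Prss34 alone reached 1 RPKM, in Δ/Δ. Apart from Prss34, all markers at 0 in C/C, of any list, were at most 0.466 RPKM in Δ/Δ. They were thus below 1 RPKM in both libraries. The part of these other cells in the values below was not tested. In such bulk RNA, fewer cells of a type and less RNA per cell cannot be told apart.

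Vpreb2 was the member that differed most. It measured 894 RPKM in Δ/Δ and 421 RPKM in C/C, from 131145 and 54543 reads. The level in Δ/Δ was 2.12 times that in C/C (95% interval 2.09 to 2.15). Such an interval is the exact interval of the ratio of 2 Poisson rates, takes a pair of mates as 1 fragment and covers counting error only. The log2 ratio, taken as log2((Δ/Δ + 0.5) / (C/C + 0.5)) in RPKM, was 1.09. With no replicates, a rule of size stands in for a test, and genes at 1 or more are called higher and genes at -1 or less lower. Vpreb2 is higher by that rule, just past its edge.

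Vpreb1 measured 893 RPKM in Δ/Δ and 745 RPKM in C/C, from 132253 and 97355 reads. The ratio was 1.199 (interval 1.19 to 1.21) and the log2 ratio 0.26, within the size rule. The paralogues thus stood at almost the same level in the Δ/Δ library, while in the C/C library Vpreb1 stood above Vpreb2. Summed as if 1 gene, they measured 1787.5 RPKM in Δ/Δ and 1166 RPKM in C/C, a ratio of 1.53 (interval 1.52 to 1.54). The log2 ratio of that sum was 0.62, which did not pass the rule.

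Igll1, which encodes λ5, measured 766 RPKM in Δ/Δ and 785 RPKM in C/C, from 128771 and 116545 reads. Its ratio of 0.976 (interval 0.965 to 0.987) corresponds to a log2 ratio of -0.04. Without rescaling, Igll1 is the member whose levels in the 2 libraries lay closest. After centring on the median of all measured genes its log2 ratio was 0.06, and that of Vpreb3 lay closer to equality, at -0.04. The sign of the Igll1 log2 ratio and its place as the closest member therefore depend on the scaling.

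Vpreb3 measured 741 RPKM in Δ/Δ and 814 RPKM in C/C over its main transcript, from 89543 and 86796 reads. The ratio was 0.911 (interval 0.899 to 0.923) and the log2 ratio -0.13. The transcript with the distal first exon measured 531 RPKM in Δ/Δ and 579.9 RPKM in C/C, a ratio of 0.915 (interval 0.902 to 0.929). Reads of the shared exon can be counted for both transcripts, so they are not separate measurements of 2 RNAs.

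**Figure D2:**
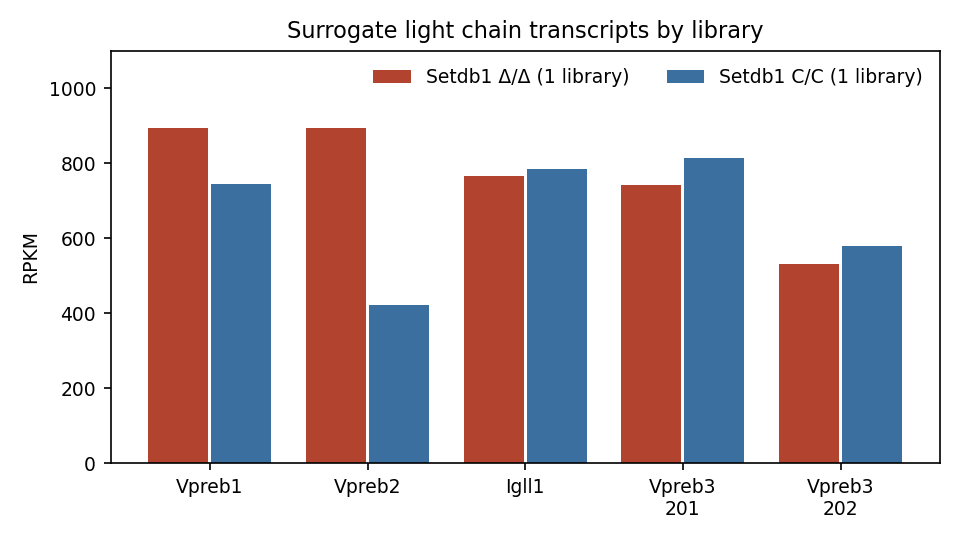
RPKM (y axis) of the 5 listed transcripts of the surrogate light chain genes in the Δ/Δ library (left bar of each pair) and the C/C library (right bar), 1 library each and no error bars. Vpreb2 stands at 894 RPKM in Δ/Δ and 421 RPKM in C/C, while Igll1 (766 and 785 RPKM) and both Vpreb3 transcripts differ little.

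Of the 4 members, 1 was higher and 0 were lower in Δ/Δ. Among all 12556 genes of at least 1 RPKM in either library, called measured here, 788 (6.28%) were higher and 836 (6.66%) lower, 12.9% in either direction. Their median log2 ratio was -0.09, with quartiles of -0.42 and 0.26. Vpreb1 lay at the upper quartile, Igll1 and Vpreb3 between the quartiles, and Vpreb2 above them. Of the 10750 measured protein-coding genes, 5.53% were higher and 4.94% lower. Among them 518 (4.82%) had a higher log2 ratio than Vpreb2, and 2639 (24.5%) a higher one than Vpreb1. For Igll1 and Vpreb3 these shares were 46.2% and 54.5%.

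All 4 genes were among the most abundant protein-coding genes in both libraries. By RPKM, Vpreb2 ranked 106 in Δ/Δ and 184 in C/C. Vpreb1 ranked 107 in Δ/Δ and 117 in C/C. Igll1 ranked 114 in Δ/Δ and 112 in C/C, and Vpreb3 ranked 115 in Δ/Δ and 109 in C/C. The order of levels in Δ/Δ was Vpreb2, Vpreb1, Igll1 and Vpreb3, in which Vpreb2 and Vpreb1 differed by less than 1 RPKM. In C/C it was Vpreb3, Igll1, Vpreb1 and, well below them, Vpreb2. Without replicates, neighbours in these orders cannot be separated from the spread between cultures. With 1 transcript per gene, the members together made up 0.164% of the RPKM summed over all listed transcripts in Δ/Δ and 0.128% in C/C. The second Vpreb3 transcript is in that sum but not in the members' part.

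**Figure D3:**
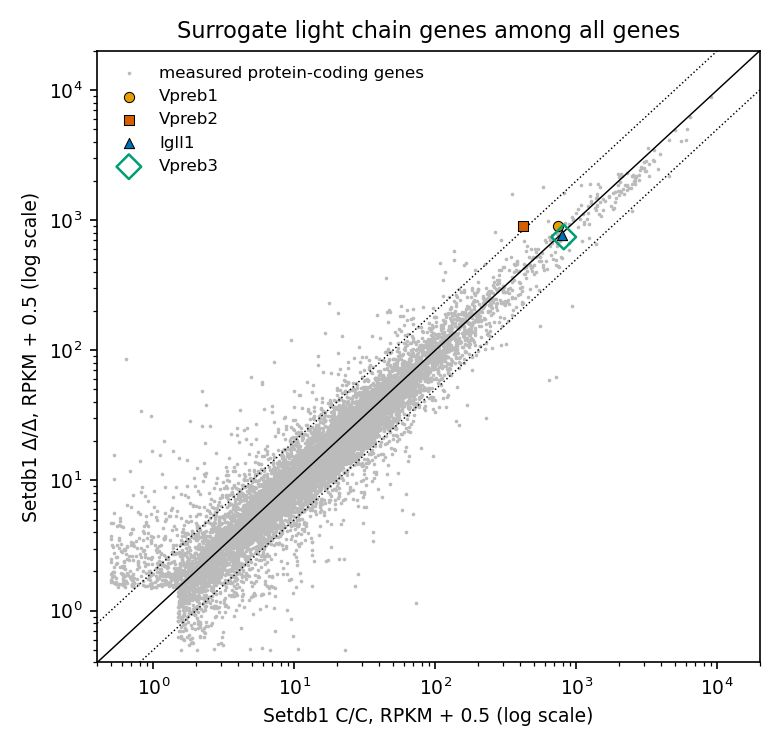
RPKM + 0.5 of measured protein-coding genes in the Δ/Δ library (y axis) against the C/C library (x axis), both on log scales, with the 4 members marked; the solid line is equality and the dotted lines 2-fold differences. Vpreb2, at 894 and 421 RPKM in Δ/Δ and C/C, lies on the edge of the upper dotted line, and Vpreb1, Igll1 and Vpreb3 lie close to equality.

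Ratios between members within a library are free of any factor common to that library. The ratio of Vpreb2 to Vpreb1 was 1.001 in Δ/Δ and 0.565 in C/C, so that it was 1.77 times as large in Δ/Δ (exact conditional 95% interval 1.74 to 1.80, counting error only). Vpreb2 made up 50.0% of the RPKM of the pair in Δ/Δ and 36.1% in C/C. Because 14.6% of Vpreb2 windows are identical to a window of Vpreb1, the placement of shared reads bears on this ratio. Its part was not tested. The 43.4% of Vpreb2 windows within 2 mismatches of Vpreb1 include these, and the rest do not match exactly.

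Igll1 served as the common measure for the others. Relative to Igll1, Vpreb2 stood at 1.17 in Δ/Δ and 0.536 in C/C, 2.18 times as large in Δ/Δ (interval 2.14 to 2.22). Vpreb1 stood at 1.17 in Δ/Δ and 0.949 in C/C, 1.23 times as large (interval 1.21 to 1.25). Vpreb3 stood at 0.968 in Δ/Δ and 1.04 in C/C, 0.934 times as large (interval 0.918 to 0.950). In these single libraries both Vpreb1 and Vpreb2 thus stood higher against Igll1 in Δ/Δ than in C/C, Vpreb2 by more. Vpreb1 by itself lay within the size rule, and the spread between cultures is not known. Igll1 and Vpreb3 kept nearly the same proportion to each other. The summed VpreB level was 2.33 times that of Igll1 in Δ/Δ and 1.49 times that of Igll1 in C/C, a quotient of 1.57 (interval 1.55 to 1.59). Against Vpreb3 the sum stood at 2.41 in Δ/Δ and 1.43 in C/C, a quotient of 1.68 (interval 1.65 to 1.71). All these intervals cover counting error only.

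**Figure D4:**
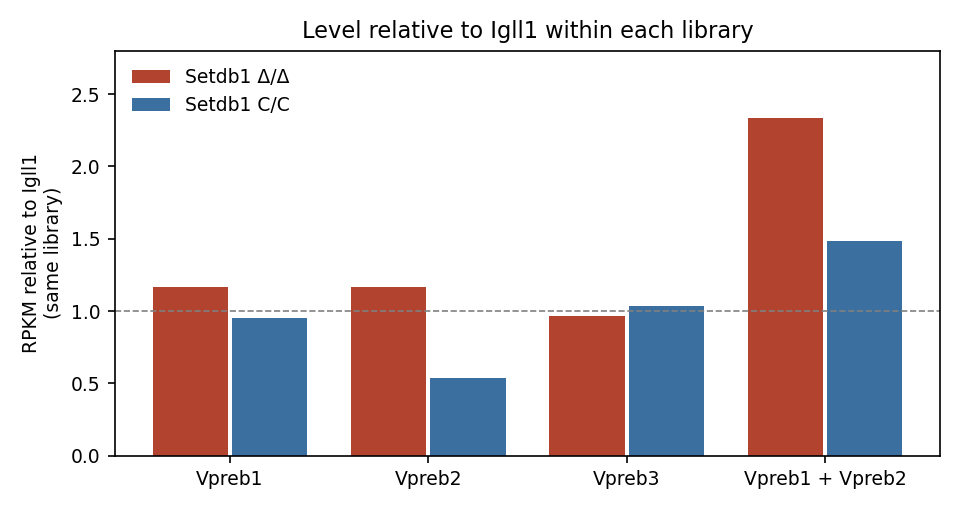
RPKM of Vpreb1, Vpreb2, Vpreb3 and the sum of Vpreb1 and Vpreb2 relative to Igll1 of the same library (y axis, dashed line at equality) in Δ/Δ (left bars) and C/C (right bars), 1 library each. The sum stands at 2.33 in Δ/Δ and 1.49 in C/C, and Vpreb3 stays near 1 in both.

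The genes whose levels in both libraries lay nearest to each member were sought by the Euclidean distance between log2(RPKM + 0.5) values, over the 2 libraries. For Igll1 the nearest of all measured protein-coding genes was Vpreb3, at a distance of 0.070, and for Vpreb3 it was Igll1. The next were Gapdh (813 RPKM in Δ/Δ and 757 RPKM in C/C, distance 0.101 from Igll1) and Hist1h2bk (686 RPKM in Δ/Δ and 766 RPKM in C/C, distance 0.143 from Vpreb3). Vpreb1 lay nearest to Hist1h3c (892 RPKM in Δ/Δ and 700.1 RPKM in C/C, distance 0.089) and to Gapdh (distance 0.138). Vpreb2 had no gene so close, its nearest being Hist1h4n (687 RPKM in Δ/Δ and 425 RPKM in C/C, distance 0.380) and Plac8 (632 RPKM in Δ/Δ and 448 RPKM in C/C, distance 0.507). Histone genes have close copies, and their values are uncertain for the same reason as those of the Vpreb paralogues. With 2 libraries, likeness means only a like level in each.

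Other protein-coding genes within 100 kb of a member were examined next. Of 20 such neighbours 15 were measured, of which 1 was higher and 0 were lower, beside 5.53% higher and 4.94% lower among all measured protein-coding genes. Around Vpreb2, none of the 6 measured neighbours passed the size rule, and their log2 ratios ran from -0.72 to -0.14. Nearest of these was Slc25a1, a mitochondrial citrate carrier gene 52.2 kb away, at 66.7 RPKM in Δ/Δ and 73.8 RPKM in C/C. The others there were Ess2 (10.5 RPKM in Δ/Δ and 15.1 RPKM in C/C), Dgcr6 (17.7 and 29.4 RPKM), Prodh (11.3 and 16.2 RPKM), Dgcr2 (22.0 and 24.2 RPKM) and Gm20518 (12.6 and 14.1 RPKM), which overlaps Dgcr2. Vpreb2 was thus called higher among neighbours whose log2 ratios were all below 0.

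Beside Vpreb1 and Igll1, Top3b, a topoisomerase gene, measured 35.0 RPKM in Δ/Δ and 40.7 RPKM in C/C, and the phosphatase gene Ppm1f 9.77 RPKM in Δ/Δ and 12.5 RPKM in C/C. Top3b overlaps the first exon of unlisted Vpreb1 transcripts, not that of the listed transcript. Beside Vpreb3, Derl3, which helps remove misfolded proteins from the endoplasmic reticulum, was the higher neighbour, at 21.8 RPKM in Δ/Δ and 3.41 RPKM in C/C (log2 ratio 2.52). It lies 47.1 kb from Vpreb3. The other 6 measured neighbours of Vpreb3 lay within the rule. They were Mif (699 and 595 RPKM in Δ/Δ and C/C), Smarcb1 (67.3 and 69.2 RPKM), Mmp11 (8.06 and 10.6 RPKM), Chchd10 (431 and 478 RPKM), Gm867 (1.28 and 1.36 RPKM) and Zfp280b (3.41 and 3.79 RPKM).

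The genes of the chains that join the surrogate light chain in the pre-B cell receptor were lower in Δ/Δ by RNA. None of the surrogate light chain genes was lower by the size rule. Protein was not measured, so the ratios below are not ratios of chains. Ighm, the µ heavy chain constant gene, measured 1143 RPKM in Δ/Δ and 3274 RPKM in C/C, a log2 ratio of -1.52. Cd79a, a signalling chain of the receptor, measured 153 RPKM in Δ/Δ and 548 RPKM in C/C (log2 ratio -1.84). Its partner chain Cd79b measured 651 RPKM in Δ/Δ and 1372 RPKM in C/C (log2 ratio -1.08), and was short of the rule at -0.98 after centring. Igll1 therefore stood at 0.670 of the Ighm level in Δ/Δ and at 0.240 in C/C, 2.796 times as large (interval 2.76 to 2.83). For Vpreb2 relative to Ighm the values were 0.783 in Δ/Δ and 0.129 in C/C, a quotient of 6.08 (interval 5.99 to 6.18). The quotient against Ighm was 3.44 for Vpreb1 and 2.61 for Vpreb3.

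In the whole list of receptor partners and signalling genes, 0 of 20 were higher and 8 were lower, with a median log2 ratio of -0.74, beside -0.09 over all measured genes and 6.66% of them lower. Lower members also included the kinase gene Syk (70.2 RPKM in Δ/Δ and 182 RPKM in C/C) and the inhibitory receptor gene Cd22 (16.5 RPKM in Δ/Δ and 60.7 RPKM in C/C). Syk and Cd22 were lower in the library in which myeloid, dendritic and erythroid markers were higher, and whether these differences are linked was not tested.

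Transcription factors known to act on surrogate light chain genes or on their silencing were lower for 6 of 23, and higher for 0, with a median log2 ratio of -0.60. Over all measured genes 6.66% were lower and 6.28% higher. Ebf1, which with the E2A protein activates Igll1 and Vpreb1, measured 76.9 RPKM in Δ/Δ and 129 RPKM in C/C, and Tcf3, the gene of E2A, 216 RPKM in Δ/Δ and 375 RPKM in C/C. Both lay within the rule, at log2 ratios of -0.74 and -0.80. Pax5, the B lineage commitment factor, measured 97.5 RPKM in Δ/Δ and 201.2 RPKM in C/C, lower at -1.04 but not after centring (-0.95). Of the factors known to silence surrogate light chain genes, Ikzf3 (Aiolos) measured 13.5 RPKM in Δ/Δ and 63.7 RPKM in C/C. Its log2 ratio of -2.20 was the lowest of the list. Ikzf1 (Ikaros) measured 94.5 RPKM in Δ/Δ and 144 RPKM in C/C, and Irf4 59.1 RPKM in Δ/Δ and 106 RPKM in C/C. Both were within the rule, at -0.60 and -0.83. So were Spi1 (PU.1, 34.1 RPKM in Δ/Δ and 54.1 RPKM in C/C) and Foxo1 (8.96 RPKM in Δ/Δ and 11.6 RPKM in C/C). Spib, the gene of a factor related to PU.1, measured 109 RPKM in Δ/Δ and 294 RPKM in C/C. Id3, an inhibitor of E proteins, measured 26.6 RPKM in Δ/Δ and 66.7 RPKM in C/C. Bach2, a repressor gene needed at the pre-B checkpoint, measured 21.3 RPKM in Δ/Δ and 52.6 RPKM in C/C. These 3 genes were lower by the rule. Bcl6, the remaining lower member, measured 1.15 RPKM in Δ/Δ and 2.88 RPKM in C/C and was short of the rule after centring, at -0.95. Bcl6 is named here because it completes the count, and was chosen after its values were seen.

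Conventional light chain constant genes, which take over from the surrogate light chain in later B cells, were lower for 2 of 2 listed. The share lower among all measured genes was 6.66%. Igkc, the κ constant gene, measured 219 RPKM in Δ/Δ and 904 RPKM in C/C (log2 ratio -2.04). Iglc2, a λ constant gene, measured 5.56 RPKM in Δ/Δ and 71.1 RPKM in C/C (log2 ratio -3.56). The level of Igkc was 0.286 of that of Igll1 in Δ/Δ and 1.15 times that of Igll1 in C/C. The ratio in Δ/Δ was thus 0.248 times that in C/C (interval 0.242 to 0.254). Iglc1, Iglc3 and Iglc4 were not analysed here.

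Genes of the pro-B stage, at which surrogate light chain genes are normally active, were lower for 2 of 12 measured and higher for 0, of 14 listed. Their median log2 ratio was -0.32. Beside them, 6.66% of all measured genes were lower and 6.28% higher. Dntt, the gene of terminal transferase, measured 256 RPKM in Δ/Δ and 142 RPKM in C/C, within the rule at 0.85. Il7r (13.8 RPKM in Δ/Δ and 12.2 RPKM in C/C) and Rag2 (5.39 RPKM in Δ/Δ and 5.88 RPKM in C/C), genes of the interleukin 7 receptor and of the V(D)J recombinase, differed little. Cd24a, a surface glycoprotein gene, measured 154 RPKM in Δ/Δ and 298 RPKM in C/C, within the rule at -0.95. The lower members were Rag1 (6.64 RPKM in Δ/Δ and 27.3 RPKM in C/C) and Ly6d (58.6 RPKM in Δ/Δ and 643 RPKM in C/C). The log2 ratio of Vpreb2 was above those of all 12 measured genes of this list, that of Vpreb1 above 11, that of Igll1 above 8 and that of Vpreb3 above 6.

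Genes of later B cell stages were lower for 10 of 13 measured and higher for 0, beside 6.66% lower and 6.28% higher among all measured genes. The list held 15 genes, of which the table held 14, and the median log2 ratio was -2.15. Ms4a1 (CD20) measured 5.07 RPKM in Δ/Δ and 69.3 RPKM in C/C, and Cd2, an adhesion gene first seen at the pre-B stage, 7.39 RPKM in Δ/Δ and 61.8 RPKM in C/C. H2-Aa, a class II histocompatibility gene, measured 26.2 RPKM in Δ/Δ and 148 RPKM in C/C, and the activation marker gene Cd83 0.546 RPKM in Δ/Δ and 6.66 RPKM in C/C. The log2 ratios of Vpreb1, Vpreb2 and Igll1 were above those of all 13 measured genes, and that of Vpreb3 above 12.

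Chaperones and folding enzymes of the endoplasmic reticulum, where surrogate light chains meet µ chains, were higher for 9 of 10 and lower for 0. Their median log2 ratio was 1.66, and 6.28% of all measured genes were higher. Hspa5, the gene of the heavy chain binding protein BiP, measured 582 RPKM in Δ/Δ and 134 RPKM in C/C, and Hsp90b1, the gene of GRP94, 466 RPKM in Δ/Δ and 107 RPKM in C/C. The disulfide isomerase genes Pdia6 (491 RPKM in Δ/Δ and 135 RPKM in C/C) and Pdia3 (71.9 RPKM in Δ/Δ and 20.5 RPKM in C/C) were higher too. These 4 genes have the largest log2 ratios of the list, and that of Vpreb2 (1.09) lay below them. It lay above that of the 1 gene of the list within the rule.

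**Figure D5:**
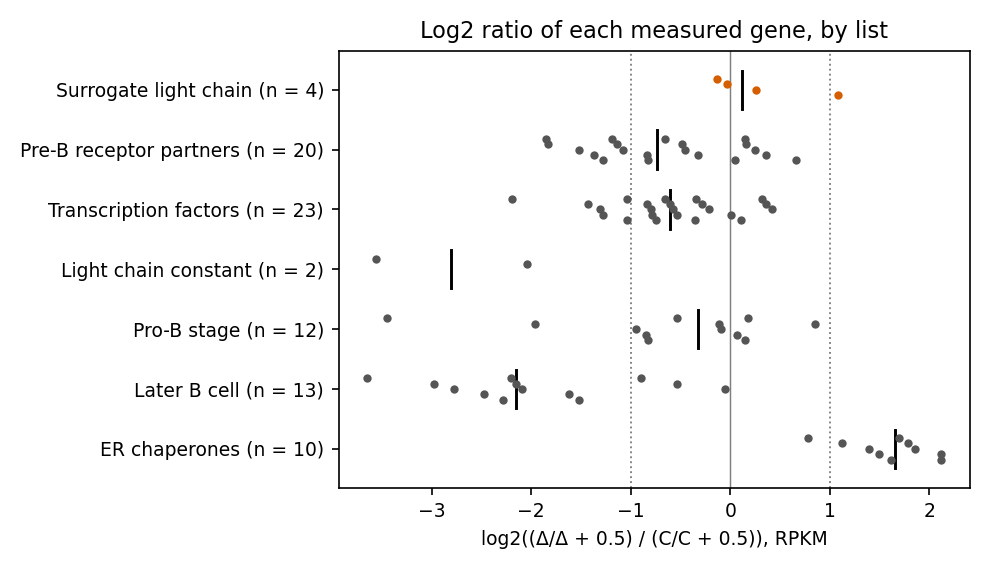
Log2 ratio of Δ/Δ to C/C (x axis) of each measured gene, by list (rows); short vertical bars are list medians and dotted lines mark the size rule of -1 and 1. The 4 surrogate light chain genes run from -0.13 to 1.09, later B cell genes have a median of -2.15, and chaperones of the endoplasmic reticulum one of 1.66.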

How the data were processed

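The authors deposited 1 table of RPKM values for 2 libraries of 101 base paired-end reads, rounded to 3 decimals. Per the file headers its columns are Del and Wt, which were read as Setdb1 Δ/Δ and Setdb1 C/C. Per the submitters' processing notes, TopHat2 2.0.9 and bedtools were used, with the builds mm9 and mm10. For the annotation release, any strand setting and the treatment of reads with several placements, the sources used here give nothing. The kit named in the labels' protocols does not mark strand.

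Transcript identifiers were matched to GENCODE M21 for 89571 transcripts (95.7%), and each gene took the values of its transcript with the highest mean RPKM. Values times transcript length were nearly whole multiples of 1 read. Among low values in transcripts 100 to 800 bases long, 96.0% in Δ/Δ and 96.6% in C/C lay within 0.1 of a whole read, which gave the depths. There, 727 transcripts in Δ/Δ and 641 in C/C had 2 reads, and 522 in Δ/Δ and 588 in C/C had 1 read, so mates were taken as counted separately. A count of 3 reads on 1 kb corresponds to 0.0155 RPKM in Δ/Δ and 0.0176 RPKM in C/C.

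The size rule used a pseudocount of 0.5 RPKM, which understates changes of low genes, and a minimum of 1 RPKM in either library. The scripts (Python 3.11.15, scipy 1.17.1, Biopython 1.88) were tested on simulated data. Genes named are the members, Setdb1, measured neighbours within 100 kb, the 2 nearest genes by level, key genes such as Ighm and Pax5, and in each list up to 4 genes of largest absolute log2 ratio. Xist, Eif2s3y, Bst2 and marker genes at 0 were named after their values were seen. Members and lists were chosen with earlier results of these data known. A gene of the lists is not reported by name here.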

Additional observations from a re-analysis of the deposited data

How the results depend on the processing

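Centring on the median of measured genes moved every log2 ratio by 0.09. A common RPKM sum moved the members by about 0.11, and the same sum leaving out the top 20 genes by about 0.10, with smaller shifts in genes of low RPKM because of the pseudocount. In that order, the log2 ratio was 1.18, 1.19 and 1.19 for Vpreb2, 0.36, 0.37 and 0.36 for Vpreb1, 0.058, 0.0697 and 0.0661 for Igll1, whose sign turned, and -0.0409, -0.0292 and -0.0328 for Vpreb3. Pooled, Vpreb1 and Vpreb2 gave 0.62, and Vpreb2 alone was past the size rule. A pseudocount of 0.1 or 1 RPKM, summed transcripts and the longest transcript left each member within its counting interval, and summed or longest transcripts also left each ratio between members within its own. With a filter of 5 RPKM, which leaves fewer genes, 452 genes were higher and 510 lower, against 788 and 836. Each list's counts stayed within 1.5 times under the alternatives run, although Cd79b, Pax5 and Bcl6 were no longer past the rule after centring or with a common RPKM sum. No paired analysis was possible because each genotype had 1 library, and for the same reason none could be left out. Depth was no limit for the members, which had 54543 or more reads in each library. The limits are the lack of replicates, the difference in sex markers, and reads that Vpreb1 and Vpreb2 can share.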
